A study of Mus musculus with 12 samples.

Results

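Messenger RNA of 8 hypoxia-induced and glycolytic genes was followed in mammary tumors of mice fed 1 of 2 agonists of the retinoid X receptor (RXR). The genes were chosen by name as textbook targets of the hypoxia-inducible factors (HIFs), namely Egln3, Car9, Ndrg1, Bnip3, Ankrd37, Slc2a1, Pgk1 and Ldha. All 8 were among the 2876 genes that appear in at least 1 of the deposited tables, beside 15 of 32 other HIF targets. The members were chosen with earlier results of these data known, so their presence there is not a result. The V-125 table, with 1589 genes, held Egln3, Car9, Ndrg1, Bnip3 and Pgk1. The bexarotene table, with 1784 genes, held every member but Egln3, so that 4 members stood in both.

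Tumors came from female MMTV-Neu mice, whose Neu (rat HER2) transgene is driven in mammary epithelium by the promoter of mouse mammary tumor virus. All 3 groups carried this transgene. Control mice ate powdered chow mixed with the ethanol and coconut oil vehicle, and treated mice ate the same chow with V-125 or bexarotene at 100 mg per kg of diet for 10 days. Each group held 4 tumors from separate mice, and the labels give neither age nor litter. V-125 and bexarotene both bind RXR, a nuclear receptor that pairs with other nuclear receptors on DNA.

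HIFs are transcription factors whose alpha subunits are hydroxylated by prolyl hydroxylases when oxygen is plentiful, and are then degraded. When oxygen is short the alpha subunit persists, pairs with its beta partner and binds DNA at a short core, ACGTG or GCGTG. Its targets move metabolism toward glycolysis, export acid, remove mitochondria and restrain HIF itself, and they are widely used as markers of poorly perfused regions of solid tumors.

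The promoters of the members are shown because all of the genes were chosen as HIF targets and the core can be read from them. RefSeq windows (GRCm38.p6) running from 250 bases before to 50 bases after the annotated start were matched by symbol for 7 of the 8 members, with 2 starts for Ldha. In the 5 windows that follow, printed 5′ to 3′ on the strand of the gene, capitals mark ACGTG or GCGTG on either strand, so that a core on the other strand reads CACGT or CACGC.
Car9 (chr4:43506776-43507075, plus strand): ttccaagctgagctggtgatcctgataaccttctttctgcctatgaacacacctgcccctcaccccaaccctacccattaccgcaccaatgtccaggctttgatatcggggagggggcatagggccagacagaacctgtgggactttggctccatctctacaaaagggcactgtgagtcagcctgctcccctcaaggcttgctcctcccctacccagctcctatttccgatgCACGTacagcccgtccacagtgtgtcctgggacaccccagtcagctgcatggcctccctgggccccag
Egln3 (chr12:54203825-54204124, minus strand): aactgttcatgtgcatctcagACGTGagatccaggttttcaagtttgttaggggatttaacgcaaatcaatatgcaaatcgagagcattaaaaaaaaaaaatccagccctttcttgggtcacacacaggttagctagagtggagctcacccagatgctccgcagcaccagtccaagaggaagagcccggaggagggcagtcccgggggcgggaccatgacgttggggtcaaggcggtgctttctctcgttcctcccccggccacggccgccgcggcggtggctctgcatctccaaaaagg
Bnip3 (chr7:138909457-138909756, minus strand): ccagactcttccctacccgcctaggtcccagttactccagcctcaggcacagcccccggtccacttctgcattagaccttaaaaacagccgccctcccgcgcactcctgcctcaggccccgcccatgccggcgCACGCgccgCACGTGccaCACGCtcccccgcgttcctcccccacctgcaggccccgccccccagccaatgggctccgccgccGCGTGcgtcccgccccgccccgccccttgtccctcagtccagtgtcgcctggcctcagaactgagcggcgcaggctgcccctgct
Pgk1 (chrX:106186850-106187149, plus strand): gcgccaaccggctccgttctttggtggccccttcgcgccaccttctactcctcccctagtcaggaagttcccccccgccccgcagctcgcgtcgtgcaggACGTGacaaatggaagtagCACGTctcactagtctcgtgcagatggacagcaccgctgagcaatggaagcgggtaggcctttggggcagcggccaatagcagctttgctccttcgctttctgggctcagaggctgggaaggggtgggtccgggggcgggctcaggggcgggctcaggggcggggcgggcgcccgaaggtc
Ldha, first start (chr7:46845554-46845853, plus strand): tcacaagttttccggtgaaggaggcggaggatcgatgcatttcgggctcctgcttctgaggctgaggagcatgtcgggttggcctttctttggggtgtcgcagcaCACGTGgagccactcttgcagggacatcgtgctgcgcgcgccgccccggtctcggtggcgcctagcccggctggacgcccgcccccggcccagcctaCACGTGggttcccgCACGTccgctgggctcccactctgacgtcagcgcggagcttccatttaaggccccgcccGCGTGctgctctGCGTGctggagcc

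ACGTG stood in 7 of the 8 windows, at least once for each of the 7 members, against 19.6% of 32851 mouse promoter windows of the same length. GCGTG stood in 5 of the 8 windows against 32.4%, and all 8 held one core or the other against 43.8%. Bnip3 and the first start of Ldha also held the palindrome CACGTG, which contains ACGTG on both strands and was found in 7.15% of windows. Positions are given for the leftmost base of a match relative to the start, and negative values lie before it. Bnip3 had the palindrome at −108, between GCGTG cores on the other strand at −117 and −99, and Ldha had it at −145 and −48. Pgk1 held a pair of ACGTG cores on opposite strands at −150 and −131, Car9 had a single core at −18, and the single core of Egln3 lay at −229. Of the windows not printed, Ankrd37 held ACGTG 2 times, Slc2a1 held it 1 time, and the second start of Ldha held GCGTG only. These matches describe the letters of the windows, were counted over promoters of every base composition, and carry no test of binding.

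**Figure D1:**
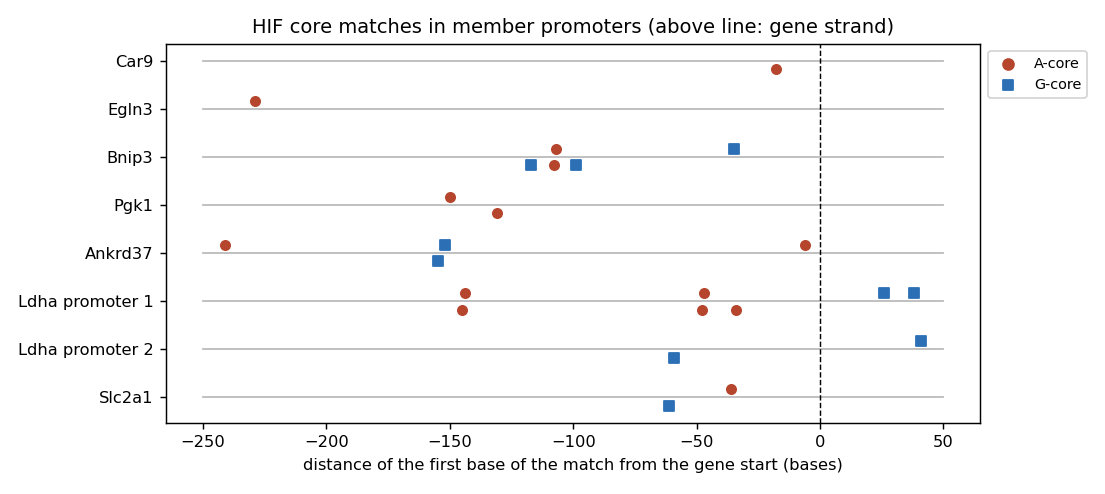
Positions of HIF core letters in the 8 promoter windows of 7 members, with the distance from the annotated start in bases on the x axis and 1 line for each window. Marks above a line are on the strand of the gene and marks below it are on the other strand, the A-core is ACGTG and the G-core is GCGTG. Every window holds at least 1 core, and only the second start of Ldha has no ACGTG.

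The 8 V-125 and control tumors each gave 15571690 to 22574865 reads on genes, and values per tumor are normalized counts, which are read counts divided by 1 size factor for each tumor. The genes listed for V-125 took 17.9% of the reads of control replicate 1 and 12.7% to 14.9% of those of the other 7 tumors. Neither table goes beyond an unadjusted p-value of 0.05 in the comparison of the authors, so a listed gene had already been selected for its difference, and members that are not listed have no value here. Bexarotene values are group means of the authors, with no spread between tumors. In bulk tumor RNA, fewer cells of a type and less RNA per cell cannot be told apart.

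All 5 listed members had lower mean normalized counts in V-125 tumors than in control tumors, from 48.7% of the control mean for Ndrg1 to 70.3% for Pgk1. Among all 1589 listed genes 48.6% were lower. Car9 was the only member whose groups did not overlap, a pattern of 17.6% of the listed genes in this direction. The 7 members listed for bexarotene were lower as well, at 19.0% to 65.7% of control, where 56.7% of all listed genes were lower. The median log2 ratio of the members was −0.79 for V-125 and −0.79 for bexarotene, beside −0.86 and −0.96 for all genes listed as lower and 0.36 and −0.56 for all listed genes. These counts describe genes that entered the tables through the same difference, and both comparisons share the 4 control tumors.

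Egln3 encodes the prolyl hydroxylase PHD3, which marks HIF alpha subunits for degradation and is itself induced by HIF (ENSMUSG00000035105, chromosome 12, 54178981 to 54203860, minus strand). Its normalized counts were 4485, 9061, 6127 and 7255 with V-125, and 8699.6, 10979.6, 13238 and 13513 in the control tumors, in the order of replicates 1 to 4, which is kept throughout. V-125 replicates 1, 3 and 4 lay below every control tumor, and the groups overlapped only because V-125 replicate 2 stood above control replicate 1. The means were 6732 ± 1925 and 11608 ± 2247 (SD, n = 4 each), 58.0% of control. On the log2(normalized count + 1) scale the difference was −0.81 (SE 0.26). A two-sided exact permutation test of the mean normalized counts, used for each gene, gave p = 0.0571, where 4 tumors against 4 cannot give less than 0.0286.

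Car9 encodes carbonic anhydrase 9, a membrane enzyme that turns carbon dioxide and water into bicarbonate and acid at the cell surface, and is used as a marker of tumor hypoxia (ENSMUSG00000028463, chromosome 4, 43506966 to 43513729, plus strand). Its normalized counts were 228, 302, 297 and 409 in the V-125 tumors and 824, 501, 424 and 767 in the control tumors. The highest V-125 tumor, replicate 4, was 409 and the lowest control tumor, replicate 3, was 424, so the groups parted by a narrow gap. The means were 309 ± 74.9 and 629 ± 196 (SD, n = 4 each), and V-125 tumors held 49.1% of the control level. The log2 difference was −0.999 (SE 0.29), and the exact permutation p of the means, 0.0286, is the smallest that these 8 tumors can give. Every gene whose groups do not overlap reaches this p-value. Car9 was listed for its difference between these same 8 tumors, so the p-value describes that difference and adds no separate support. Exons of Car9 are overlapped by a gene on the other strand, Gm12454, as are those of Ndrg1 (Gm17035 and Gm2895), Bnip3 (Gm45507), Slc2a1 (Gm12868) and Ankrd37 (Ufsp2 and Lrp2bp). Whether reads were counted by strand is not given in the sources used here. Reads in the stretches that these 5 members share with their partners therefore cannot be told apart.

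Ndrg1, a gene of differentiation and stress responses that low oxygen induces (ENSMUSG00000005125, chromosome 15, 66929318 to 66969640, minus strand), varied most between tumors. Normalized counts were 1252, 998, 571 and 376 in the V-125 tumors and 2924, 1186, 952 and 1501 in the control tumors. V-125 replicates 1 and 2 lay inside the control range and replicates 3 and 4 lay below it. The means were 799 ± 398 and 1641 ± 884 (SD, n = 4 each), which is 48.7% of control with coefficients of variation of 49.8% and 53.9%. The log2 difference was −1.05 (SE 0.53), and the means had an exact permutation p of 0.143. The difference was smaller without control replicate 1, when the control mean was 1213 and V-125 stood at 65.9% of it.

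Bnip3 encodes a protein of the outer mitochondrial membrane that promotes the removal of mitochondria by autophagy (ENSMUSG00000078566, chromosome 7, 138890836 to 138909519, minus strand). Its normalized counts were 555, 378, 248 and 281 in the V-125 tumors and 739, 355, 402 and 793 in the control tumors. Control replicates 1 and 4 stood above all V-125 tumors, whereas control replicates 2 and 3 lay among them. The means were 366 ± 138 and 572 ± 226 (SD, n = 4 each), 63.9% of control. The log2 difference was −0.63 (SE 0.39), and the means had an exact permutation p of 0.2. Ankrd37, an ankyrin repeat gene known as a HIF target, was not listed for V-125.

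Pgk1 encodes phosphoglycerate kinase 1, a glycolytic enzyme that makes ATP, and was the only one of the 3 members of glucose uptake and glycolysis listed for V-125 (ENSMUSG00000062070, chromosome X, 106187100 to 106203699, plus strand). Its normalized counts were 4276, 5377, 3577 and 6075 in the V-125 tumors and 8315, 5274, 6281 and 7595 in the control tumors. Control replicate 2 lay below V-125 replicates 2 and 4, and the other 3 control tumors lay above every V-125 tumor. The means were 4826 ± 1115 and 6866 ± 1355 (SD, n = 4 each), 70.3% of control, the smallest relative difference of the 5. The log2 difference was −0.52 (SE 0.22), and the means had an exact permutation p of 0.0857. The annotation names 3 related copies of Pgk1, with which reads could be shared. Slc2a1, the glucose transporter GLUT1, and Ldha, the lactate dehydrogenase subunit that makes lactate from pyruvate, were not listed for V-125.

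**Figure D2:**
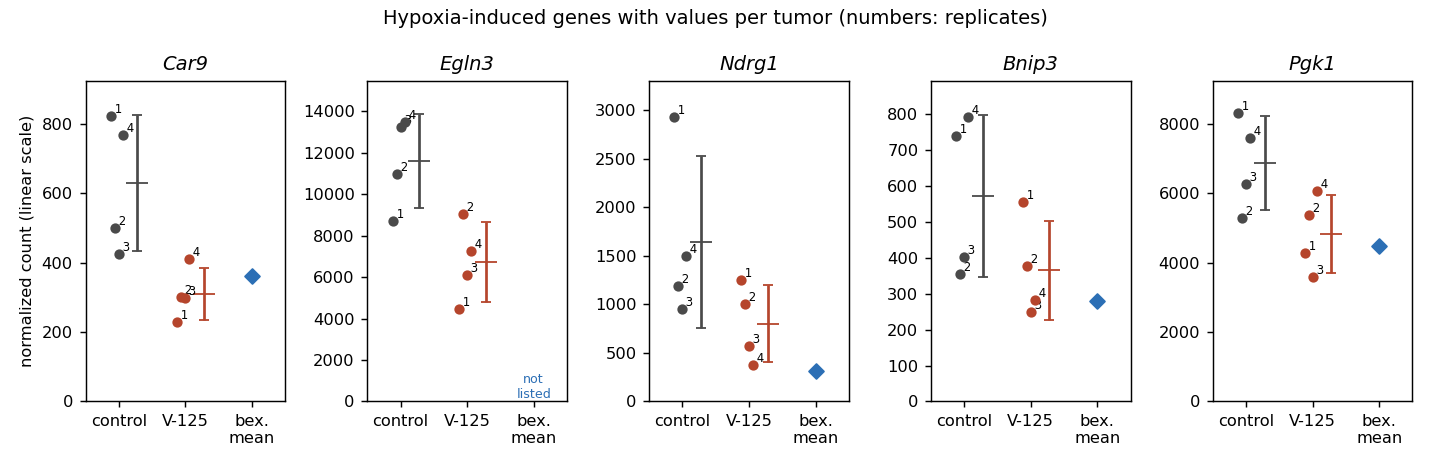
Normalized counts of the 5 members listed for V-125 in each of the 4 V-125 and 4 control tumors, 1 panel for each gene with the y axis starting at 0. Points carry the replicate number, bars show the mean ± SD, diamonds show the authors' bexarotene mean, and Car9 is the only panel in which all V-125 tumors lie below all control tumors.

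In the edgeR quasi-likelihood test on the read counts, adjusted over 15310 tests, a number recovered from the deposited p-values and adjusted p-values that may not be the full number of genes tested, no member passed 0.05, and neither did any of the 1333 listed genes tested (0%). The edgeR log2 fold changes were −1.03 for Car9 (unadjusted p = 0.00377, adjusted p = 0.526), −0.79 for Egln3 (0.00801 and 0.629) and −1.04 for Ndrg1 (0.0382 and 0.777). Pgk1 had −0.51 (edgeR unadjusted p = 0.0375, adjusted p = 0.777) and Bnip3 had −0.65 (0.0891 and 1). An unadjusted edgeR p-value under 0.05 was thus found for 4 of the 5 members, beside 71.5% of the listed genes tested. With DESeq2 130 of 1589 genes passed an adjusted p of 0.05, none of them a member, and Car9 came nearest with a DESeq2 adjusted p of 0.0563. limma-voom called 0 genes, with 885 of 1333 under an unadjusted 0.05.

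Levels of the members were compared with each other in FPKM, which divides counts by gene length. Egln3 was the highest with a mean FPKM of 191 over the 8 tumors, rank 40 of the 1589 listed genes, followed by Pgk1 with 144 at rank 52. Bnip3 (11.5), Car9 (11.3) and Ndrg1 (10.3) were far lower, at ranks 458, 461 and 496, and their order cannot be separated from their spread. In the V-125 tumors the FPKM was 140.0 ± 39.4 for Egln3, 119 ± 27.4 for Pgk1, 8.96 ± 3.44 for Bnip3, 7.43 ± 1.78 for Car9 and 6.73 ± 3.38 for Ndrg1 (SD, n = 4). In the control tumors the same genes had 242 ± 46.3, 169.8 ± 33.8, 14.0 ± 5.53, 15.2 ± 4.75 and 13.8 ± 7.49 (SD, n = 4). In both groups Egln3 and Pgk1 formed a high pair and the other 3 members a low set.

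The tumors that were high for one member were not high for all of them. V-125 replicate 1 had the highest Ndrg1 and Bnip3 of its group and the lowest Car9 and Egln3. Among control tumors, replicates 1 and 4 were the upper pair for Car9, Ndrg1, Bnip3 and Pgk1, whereas replicate 1 was the lowest for Egln3. Without V-125 replicate 1 the V-125 means were 53.4% of control for Car9, 64.4% for Egln3, 39.5% for Ndrg1, 52.9% for Bnip3 and 73.0% for Pgk1.

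**Figure D3:**
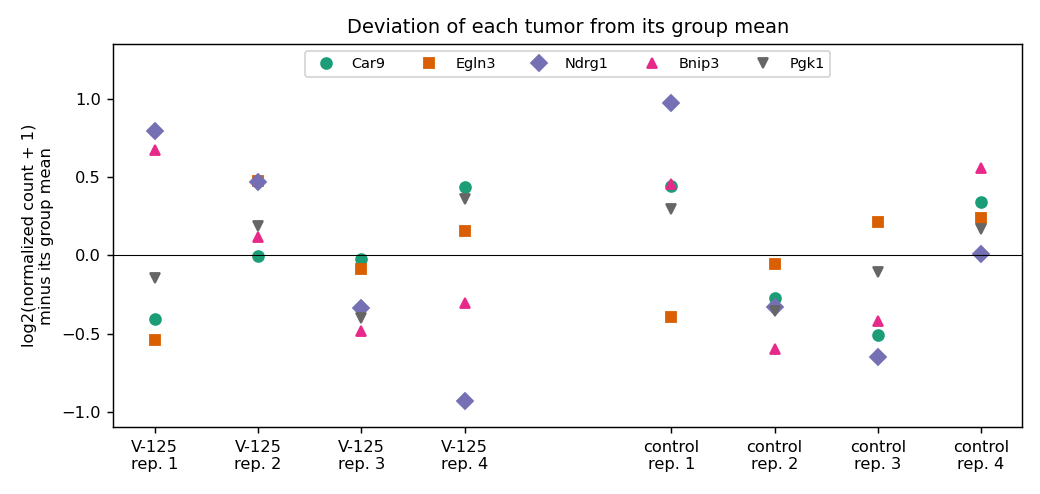
Deviation of each tumor from the mean of its own group on the log2(normalized count + 1) scale for the 5 listed members, with the 8 tumors on the x axis and 1 symbol for each gene. V-125 replicate 1 lies above 0 for Ndrg1 and Bnip3 and below 0 for Car9 and Egln3, and control replicate 1 lies above 0 for every member but Egln3.

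The mean deviation of the 5 members from their group means was taken per tumor, and the other listed genes were compared with it over the 8 tumors. Osr1, a zinc finger transcription factor, was the most like it (Pearson r = 0.97), followed by the antisense transcript Fhad1os1 (0.96), Minpp1, an inositol polyphosphate phosphatase (0.93), Anpep, the membrane aminopeptidase CD13 (0.91), and Edem1, a gene of glycoprotein degradation in the endoplasmic reticulum (0.91). Fhad1os1 had a mean of only 3.54 normalized counts. The likeness is within groups and says nothing of the difference between them. Osr1, Fhad1os1 and Anpep had lower means with V-125, as the members did. Minpp1 (1155 with V-125 against 908 in control tumors) and Edem1 (2136 against 1671) had higher means. The 8 points of each correlation share size factors and libraries, and the 5 genes are the top of 1589, so the values are a description. Among other HIF targets the same r was 0.79 for P4ha1, 0.74 for Ak4 and 0.64 for Bhlhe40. Mgarp (0.61), Kdm3a (0.54), Higd1a (0.49) and Ppp1r3c (0.34) had positive values as well. Stc2 (−0.07), Plod2 (−0.10) and Car12 (−0.16) had small negative values.

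For bexarotene the largest relative difference among the members was that of Ndrg1, with a mean normalized count of 311 against 1632 in control tumors, which is 19.0% of control. Ankrd37 had 24.8 against 54.0 (45.9%) and Bnip3 had 280.2 against 569 (49.3%). Car9 had 361 against 625 (57.7%). For the genes of glucose use, Ldha had 10292 against 16701 (61.6%), Slc2a1 had 2026 against 3125 (64.8%), and Pgk1 had 4486 against 6826 (65.7%). These are authors' means over 4 tumors without a spread, and no test was made on them. Ankrd37 (chromosome 8, 45996902 to 46005707), Ldha (chromosome 7, 46841475 to 46855627) and Slc2a1 (chromosome 4, 119108711 to 119137983) had values from this table alone, and Ldha has 2 annotated pseudogene copies.

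The 4 members in both tables could be set side by side, as percent of the control mean of each table. Ndrg1 stood at 48.7% with V-125 and 19.0% with bexarotene, Bnip3 at 63.9% and 49.3%, Car9 at 49.1% and 57.7%, and Pgk1 at 70.3% and 65.7%. Values per tumor were divided by the ratio of the 2 control means, which brought them to the scale of the bexarotene table. The bexarotene mean then lay below every control tumor for all 4 genes. It lay below every V-125 tumor for Ndrg1 and inside the range of the V-125 tumors for the other 3. A group mean can lie below every control tumor while its own tumors overlap them, and these genes were listed for a difference from the same controls. The 2 agonists were given at the same dose and for the same time. The difference between them was not tested, since values per tumor were used for V-125 alone, and the control tumors are shared.

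**Figure D4:**
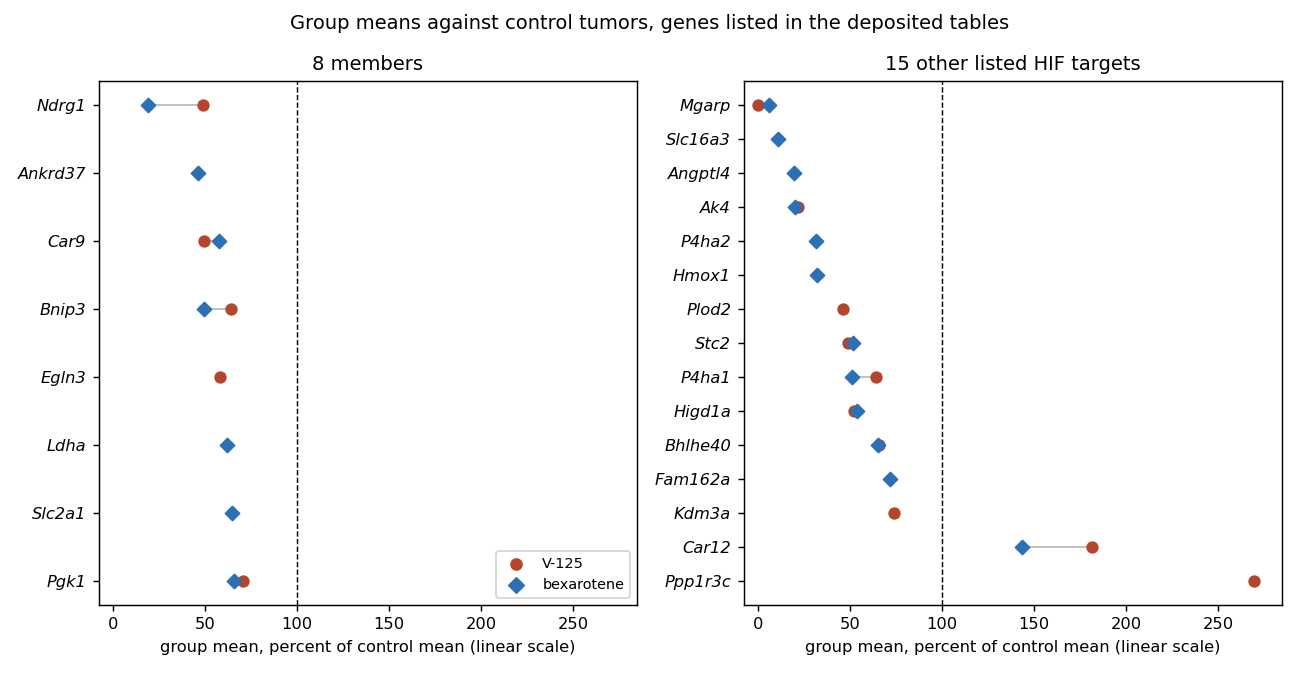
Mean normalized count as percent of the control mean for V-125 and bexarotene, with the 8 members on the left and the 15 other listed HIF targets on the right, and a line at the control level. A missing point means that the gene is not in that table, every member lies left of the control line, and Car12 and Ppp1r3c lie right of it.

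Of 32 other HIF targets on a fixed list, 10 were listed for V-125, of which 8 were lower and 2 higher, and 12 were listed for bexarotene, of which 11 were lower and 1 higher. Read against 48.6% and 56.7% of all listed genes lower, these are counts of selected genes and not a test. The median log2 ratio was −0.65 for the 9 V-125 genes with reads in both groups and −1.31 for the 12 bexarotene genes. Only 7 genes were listed for both agonists, and Mgarp, without reads in V-125 tumors, enters the bexarotene median alone. The 2 medians therefore cover different genes and do not compare the agonists. Ak4, a mitochondrial adenylate kinase, had 38.8, 65.5, 46.7 and 77.2 normalized counts in the V-125 tumors and 344, 86.7, 184 and 436 in the control tumors. All V-125 tumors lay below all control tumors (exact permutation p = 0.0286), and the V-125 mean was 21.7% of control. The bexarotene mean was 52.2 against 261. Kdm3a, a histone demethylase, had 892, 971, 1060.5 and 854 against 1327, 1137.5, 1078 and 1569, again without overlap (exact permutation p = 0.0286), at 73.9% of control. Mgarp, a mitochondrial protein of the hypoxia response, had no reads in any V-125 tumor and 26.5, 4.62, 22.4 and 39.3 normalized counts in the control tumors (exact permutation p = 0.0286). Its bexarotene mean was 1.34 against 23.0. Ak4, Kdm3a and Mgarp were thus 3 of 10 listed targets without overlap, beside 17.6% of all listed genes in this direction. They were listed for a difference between these same 8 tumors, so their permutation p-values add no separate support.

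The other HIF targets with a lower V-125 mean overlapped between groups. They were the collagen hydroxylases Plod2 (46.1% of control, exact permutation p = 0.0857) and P4ha1 (63.7%, p = 0.314), the secreted glycoprotein Stc2 (48.5%, p = 0.114), the mitochondrial protein Higd1a (51.8%, p = 0.0571) and the repressor Bhlhe40 (65.6%, p = 0.143). Without V-125 replicate 3 the V-125 mean of Stc2 was 27.8% of control. With bexarotene P4ha1 stood at 50.7%, Stc2 at 51.7%, Higd1a at 53.4% and Bhlhe40 at 65.3%. Listed for bexarotene alone were the lactate exporter Slc16a3 at 10.6% of control (7.97 against 75.4 normalized counts), Angptl4, an inhibitor of lipoprotein lipase, at 19.2%, P4ha2 at 31.1%, heme oxygenase Hmox1 at 32.0% and Fam162a at 71.4%. The opposite direction was found for Car12, a membrane carbonic anhydrase like Car9. Car12 had 9130, 4258, 6980.5 and 9608 normalized counts in the V-125 tumors and 2994, 3525, 4168 and 5849 in the control tumors. Only V-125 replicate 2 lay within the control range, and the means were 181% of control for V-125 (exact permutation p = 0.0571) and 143% for bexarotene. Ppp1r3c, which targets a phosphatase to glycogen, was at 269.7% of control with V-125 (exact permutation p = 0.114), at 175% without V-125 replicate 1 and at 458% without control replicate 1.

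Of 20 glycolytic genes outside the members, 14 were in neither table. For V-125 3 were listed, all with overlapping groups, with Pfkp, a phosphofructokinase, at 73.2% of control (exact permutation p = 0.143) and the aldolases Aldoc at 134% (p = 0.114) and Aldoa at 197% (p = 0.0857). Aldoa had means of only 92.9 normalized counts with V-125 and 47.2 in control tumors, where Aldoc had 75960 and 56576. The annotation holds 2 genes named Aldoa, so the counts of Aldoa are uncertain. Which of the 2 was listed was not determined, so the 197% may not be that of the main glycolytic enzyme. Bexarotene listed 3 as well, all lower, namely Tpi1 at 69.1%, the lactate transporter Slc16a1 at 51.3% and Slc16a3, which is also counted among the HIF targets. Of 16 genes that carry pyruvate into the citrate cycle, the V-125 table held 0 and the bexarotene table held 1, the pyruvate carrier Mpc2 at 68.5%.

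Of 12 genes of oxygen sensing and HIF subunits, 1 was listed. Epas1, which encodes HIF-2 alpha, had 1691, 1562, 1661 and 1539.7 normalized counts in the V-125 tumors and 786, 1049.6, 876 and 1309 in the control tumors. Every V-125 tumor lay above every control tumor (exact permutation p = 0.0286), the means were 1613 ± 74.1 and 1005 ± 230 (SD, n = 4 each), and bexarotene stood at 135% of control. Epas1 was listed for its difference between these same tumors, so the p-value adds no separate support. The share of all listed genes with groups apart in the higher direction was not counted. Of 13 paralogs of the members, Car12 was the only one listed in either table.

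Some markers of other cells in the tumor were listed as well, and their part in the results of the members was not tested. Of 10 endothelial markers 2 were listed for V-125, Kdr and Eng, both with higher means (exact permutation p = 0.0286 and 0.0571), with summed normalized counts of 1487 to 1956 against 835 to 1216 in control tumors, and 0 were listed for bexarotene. Of 6 erythroid markers 2 were listed for V-125, both with lower means and overlapping groups, with sums of 36.7 to 203, the highest in V-125 replicate 1, against 108 to 366, and 4 for bexarotene, all lower, with Hba-a1 at 44.9% of control. Hba-a2 had no reads in any V-125 tumor, and 27.7, 0, 23.2 and 0.854 normalized counts in the control tumors (exact permutation p = 0.143). Of 10 macrophage markers 2 were listed for V-125, Mertk and Fcgr1, both with overlapping groups, with sums of 272 to 939 against 211 to 319 and the highest value in V-125 replicate 1. For bexarotene 6 of the 10 were listed, all lower, among them C1qa at 37.2%. The T cell marker Cd2, 1 of 9, had 195 normalized counts in V-125 replicate 1 and 3.17 to 23.8 in the other V-125 tumors, against 0 to 5.59 in control tumors.

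Epithelial markers were present in all 8 tumors, with Epcam at 28485 normalized counts or more. Of 8 luminal markers Epcam and Cdh1 were listed for V-125, both lower, with sums of 34079 to 41053 against 43376 to 62618. Epcam made up most of these sums and its groups did not overlap, whereas those of Cdh1 did (exact permutation p = 0.114). Krt8 and Krt18 were listed for bexarotene, at 72.3% and 68.0% of control. Of 7 basal markers Acta2 and Trp63 were listed for V-125, both with lower means and overlapping groups. Their sums were 97.3 to 609, the highest in V-125 replicate 1, against 525 to 1032. Bexarotene listed 3, of which Krt17 and Oxtr were lower and Myh11 higher. Trp63 had no reads in V-125 replicate 1. The fibroblast list had Pdgfrb at 59.8% with bexarotene and the adipocyte list had Fabp4 at 337%, with 1 gene each and none for V-125. Of 12 proliferation genes, Mcm2 was listed for V-125 at 146% and Mki67 for bexarotene at 158%.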

How the data were processed

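RNA of 12 mammary tumors, 4 per group, was enriched for polyA and sequenced. Groups and replicate numbers were taken from the labels. The submitters' processing notes name STAR 2.6.1d, featureCounts 1.5.0-p3 and limma, and the paper names limma with read counts. For V-125 and control tumors the deposited values of a gene in a tumor are its raw read count, its normalized count (a signal obtained by the authors with 1 size factor for each tumor) and its FPKM. For bexarotene the authors' mean normalized counts were used, and values per tumor were not used here. The authors' log2 fold changes, p-values, adjusted p-values and −log10 adjusted p-values hold their own comparisons, as does a score that multiplies a log2 fold change by a constant. None is printed. The deposited p-values were read only for the listing threshold of 0.05 and for the number of tests, recovered as 15310 for V-125, with which every adjusted p scales. Depth was 15571690 to 22574865 reads on genes per tumor, and precision is limited by 4 tumors per group. The coordinates of the V-125 table were identical to GENCODE release 21 of mouse (GRCm38) for 1532 of 1589 genes, including all 5 listed members.

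Each gene was compared by a two-sided exact permutation test of mean normalized counts over 70 assignments of 8 tumors. Every gene so tested was listed for a difference between these same tumors, so the permutation p-values add no separate support. Members were also tested with edgeR 4.0.16 (quasi-likelihood, filterByExpr, the authors' size factors, R 4.3.3) on all listed genes, with Benjamini-Hochberg adjustment over 15310 tests. Its variance estimates rest on selected genes. Alternatives were DESeq2 1.42.0, limma-voom (limma 3.58.1), library totals, no filter, adjustment over listed genes alone, the replicate number as a block, leaving out each tumor (for means of single genes chosen after seeing the data), and a pseudocount of 10 in place of 1. The scripts were tested on simulated data. Other steps used Python 3.11.15 with pandas 2.3.3 and scipy 1.17.1.

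Members, lists and tests were chosen with earlier results of these data known. The text names all members, every listed gene of the HIF, glycolysis, oxygen sensing, pyruvate and paralog lists, up to 3 genes of each marker list, and the 5 genes most like the members. Marker genes were limited to those of largest mean count, apart from Mertk, Fcgr1, Cdh1, Krt17, Trp63 and Hba-a2, which were named after their values were seen.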

Additional observations from a re-analysis of the deposited data

Results flagged for a closer look

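Among 19 listed genes in 38 groups of 4 tumors, the highest or lowest tumor stood apart by Dixon's test in 3 groups, none of them of a member, and chance gives this in about 1 in 20 groups. Ppp1r3c, which targets a phosphatase to glycogen, had 1270.2 normalized counts in V-125 replicate 1, where the nearest V-125 tumor had 422 (gap over range 0.963). It also had 512 in control replicate 1, where the nearest control tumor had 162 (0.847). Aldoa, whose counts are uncertain because the annotation holds 2 genes of this name, had 23.9 in control replicate 4, where the nearest control tumor had 52.0 (0.833).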

How the results depend on the processing

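All 5 listed members stayed lower with V-125 in every fit, and no member passed an adjusted p of 0.05 with DESeq2, limma-voom, library totals, no filter, or any tumor left out (0 to 0 members). Adjusted over the listed genes alone, which were selected for their difference, 1 member passed in edgeR (Car9, adjusted p = 0.0458) beside 9.00% of the genes tested, 4 in DESeq2 beside 70.2%, 1 in limma-voom beside 11.3%, and 0 with the replicate block beside 1.43%. Members whose groups did not overlap numbered 1 to 2 as each tumor was left out, with Egln3 joining Car9 without V-125 replicate 2 or control replicate 1, and Pgk1 without control replicate 2. Leaving out a tumor can only add such genes, and the share of all listed genes rose from 17.6% to between 19.3% and 27.5%. Members with an unadjusted edgeR p under 0.05 numbered 4 beside 71.5% of the genes tested. They numbered 2 without V-125 replicate 3 (58.7%), control replicate 1 (52.7%) or control replicate 4 (54.1%), 3 without V-125 replicate 4 (48.8%), and 5 without control replicate 2 (46.0%). For Ndrg1 the edgeR log2 fold change moved from −1.04 to −0.60 without control replicate 1. With the replicate block 0 members passed in edgeR, 4 had an unadjusted p under 0.05 beside 58.6% of the genes tested, and Egln3 had −0.81. Tumors of the same number did not deviate together (r = 0.0431, −0.0517, −0.118 and 0.0516), and 0 of 8 were closest to their own number. No pairing by number was thus seen, but the listed genes were selected for a group difference and cannot exclude one. The number of listed genes called differed between tools, with 0 by edgeR and 130 by DESeq2 (the cause was not tested). The 5 genes most like the members were the same with a pseudocount of 10. Depth limits Mgarp, Hba-a2, Cd2 and Fhad1os1, which had few reads.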
